A study of Rattus norvegicus with 12 samples.

Results

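The NRF2 antioxidant genes are 10 genes that the transcription factor NRF2 is known to switch on when a cell meets an oxidant or an electrophile. They were chosen by symbol from the deposited table, as *Hmox1*, *Nqo1*, *Gclm*, *Gclc*, *Txnrd1*, *Srxn1*, *Slc7a11*, *Osgin1*, *Gsr* and *Me1*. All 10 were found among the 21556 genes of the table, and all 10 were among the 11451 genes tested, so a filter on low values removed none of them.

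RNA was sequenced from ND7/23, a single cultured line made by fusing rat dorsal root ganglion (DRG) neurons with mouse N18Tg2 neuroblastoma cells. Of 12 libraries, 3 came from control cells, 3 from cells given 100 μM menthol, the cooling compound that opens the TRPM8 channel, 3 from cells given Wnt3a at 100 ng/ml, which activates β-catenin signalling, and 3 from cells given both, each for 6 h. The labels state no vehicle for the control cells and do not say whether the line was differentiated or whether libraries of a group came from separate cultures, so the p-values measure the spread between these libraries. Each gene's level is given in FPKM, the fragments counted on a gene scaled by its length and by the library's total. The question asked here is whether menthol, alone or beside Wnt3a, moved genes that answer oxidative or electrophilic stress.

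In unstressed cells, KEAP1 holds NRF2 (encoded by *Nfe2l2*) and hands it to a ubiquitin ligase for destruction. Oxidants and electrophiles modify cysteines of KEAP1, NRF2 then escapes destruction, and with a small MAF partner it binds antioxidant response elements in the promoters of its targets. These targets make glutathione, keep thioredoxin reduced, supply NADPH and detoxify quinones and haem. In the nervous system the pathway is known to be stronger in glia than in mature neurons.

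Of these genes, 2 passed the test with menthol, in opposite directions. Both passed only in the average over both Wnt3a conditions, where 1.15% of all tested genes passed. In that average, *Me1*, the cytosolic malic enzyme that makes NADPH, fell by 9.81%, and *Txnrd1*, the cytosolic thioredoxin reductase, rose by 8.43%. The call held in 9 of 19 alternative fits for *Me1* and in 6 of 19 for *Txnrd1*. The largest averaged differences, of 23.7% in *Slc7a11* and 22.2% in *Osgin1*, the members with the lowest levels, did not pass. *Hmox1* (haem oxygenase 1) and *Gclm*, a subunit of the enzyme that starts glutathione synthesis, had averaged differences of less than 1%. Their 95% confidence intervals ran from −4.99% to 4.05% and from −9.36% to 9.41%. No member differed by more than 2-fold, the fold threshold of the study, in any comparison.

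Of the members, 4 carried letters of the antioxidant response element near their start site, and these are shown because they include both genes that passed the test. RefSeq promoter sequences of the GRCr8 rat assembly, from 250 bases before to 50 bases after the annotated start, were matched by gene identifier for 8 of the 10 members, not for *Hmox1* and *Gsr*. The letters searched on both strands were TGACNNNGC, the general core, and TGANTCAGC, the form that overlaps the AP-1 site, and TGACTCAGC counts in both. In capitals below are the matches, each with 10 bases on either side, written 5′ to 3′ on the gene's strand.

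Me1, chr8:96540393-96540421, minus strand: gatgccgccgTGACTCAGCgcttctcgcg
Txnrd1, chr7:22755964-22755992, minus strand: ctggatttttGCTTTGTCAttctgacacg
Gclm, chr2:213031953-213031981, plus strand: tgcggtttctGCTTAGTCAttgtcttcca
Srxn1, chr3:161064797-161064825, plus strand: aaactcacccTGAGTCAGCgacccgacgc

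The *Me1* match began 167 bases before the start, and that of *Srxn1* began 5 bases before it and ran across it. In *Txnrd1* and *Gclm* the core was read on the opposite strand, 78 and 172 bases before the start, and *Txnrd1* has a further promoter window with no match. The general core was present in 3 of the 8 members against 13.1% of all 27457 genes with a promoter, and the second form in 2 of 8 against 1.24%. The match is a description of letters in this window, and the element can lie outside it. *Me1* and *Txnrd1*, which both hold the core, moved in opposite directions.

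The levels of the members before treatment spanned a wide range. In control cells *Nqo1* stood highest at 62.6 ± 3.36 FPKM (SD, n = 3), followed by *Txnrd1* at 50.4 ± 2.13, *Hmox1* at 45.3 ± 1.83 and *Me1* at 25.8 ± 1.38 FPKM. The middle of the order was held by *Gclc* at 17.3 ± 0.327, *Gsr* at 16.6 ± 0.296, *Srxn1* at 12.3 ± 0.768 and *Gclm* at 10.2 ± 1.25 FPKM. *Slc7a11*, at 1.003 ± 0.0743 FPKM, and *Osgin1*, at 0.785 ± 0.205 FPKM, came last. The control libraries of neighbours in this order did not overlap, except those of *Slc7a11* and *Osgin1*. *Nqo1* was above 89.0% of the tested genes and *Osgin1* above 6.60%.

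**Figure D1:**
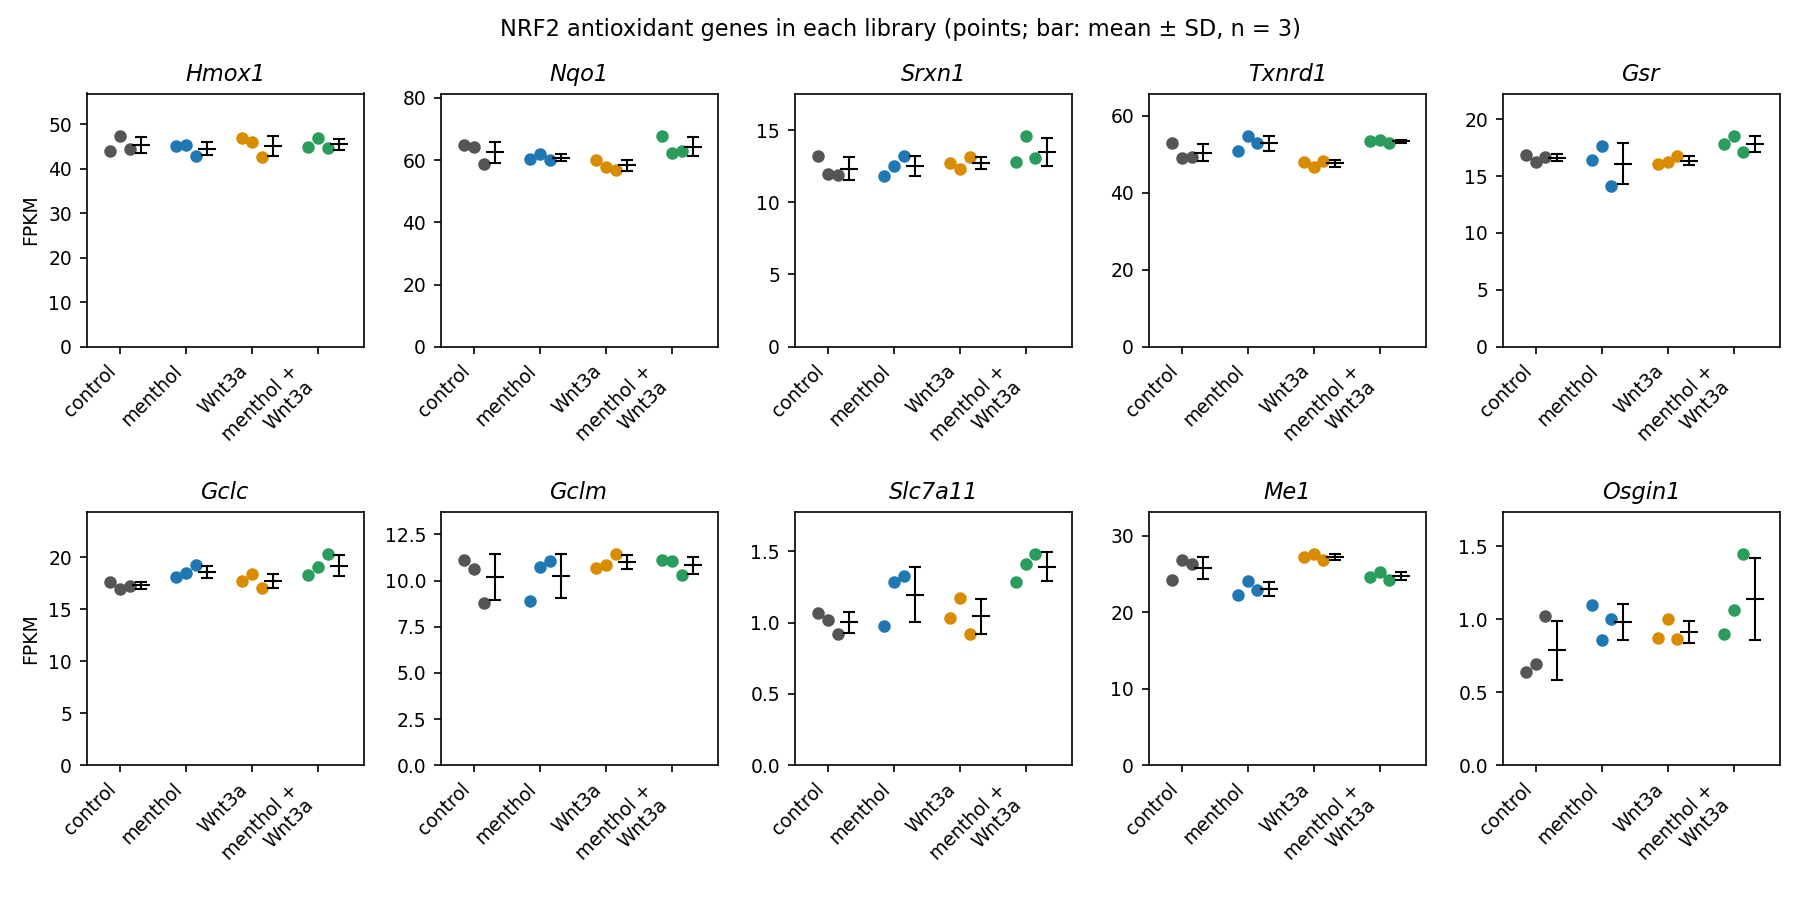
FPKM (vertical axis, from 0) of the 10 NRF2 antioxidant genes in each of the 12 libraries (points), by group on the horizontal axis, with the group mean and SD (bars, n = 3). *Me1* is lower with menthol in both Wnt3a conditions, *Txnrd1* has its highest mean with menthol and Wnt3a together, and *Hmox1* keeps between 42.6 and 47.4 FPKM throughout.

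The test was limma on log2(FPKM + 0.1), with all 4 groups in 1 fit and p-values adjusted over all tested genes by the Benjamini-Hochberg method. Menthol was compared with control, menthol with Wnt3a was compared with Wnt3a alone, and the average of both differences set 6 libraries with menthol against 6 without. In this average, 2 of the 10 members passed an adjusted p of 0.05 (*Me1* and *Txnrd1*), where 1.15% of all tested genes passed. Without adjustment, 5 of 10 had a p under 0.05 (*Gclc*, *Slc7a11* and *Osgin1* besides), against 15.5% of all tested genes. The median difference of the members was 0.051 on the log2 scale, and that of all tested genes was −0.001.

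*Me1* (NCBI gene 24552) turns malate into pyruvate in the cytosol and makes NADPH, the electron source of both the glutathione and the thioredoxin systems. It was at 24.2, 26.8 and 26.3 FPKM in the control libraries, 22.3, 24.1 and 22.9 with menthol, 27.2, 27.6 and 26.9 with Wnt3a, and 24.7, 25.2 and 24.2 with menthol and Wnt3a. Every menthol library was below every library of its own Wnt3a condition without menthol, although menthol with Wnt3a overlapped control. The averaged difference was −0.15 on the log2 scale (SE 0.030, 95% CI −0.21 to −0.084, limma adjusted p = 0.0318), and the level decreased by 9.81%. Without Wnt3a the difference was −0.16 (limma adjusted p = 0.253) and with Wnt3a −0.14 (adjusted p = 0.179), so it passed only in the average. The averaged call was lost when any 1 of 9 of the 12 libraries was left out (control replicates 2 and 3, menthol 1 and 3, Wnt3a 1 and 2, and each replicate of menthol with Wnt3a) and with no FPKM minimum (adjusted p = 0.0647). The difference stayed between −0.17 and −0.13 in all of these fits.

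Among markers of other cell types, the summed level of 6 fibroblast markers was lower with menthol and with Wnt3a than in control cells. It was at 136.3 to 145.0 FPKM in control cells, 124.2 to 128.1 with menthol, 128.5 to 135.2 with Wnt3a and 124.1 to 125.8 with both. Most of this sum was *Col1a2*, at 108.8 to 126.5 FPKM. The defining genes *Dcn* and *Lum* were under 1 FPKM in every library. *Col1a2* fell by 7.17% with menthol averaged (limma adjusted p = 0.0251) and by 10.5% with both against control (adjusted p = 0.020). With Wnt3a alone it differed by −6.12% and did not pass (adjusted p = 0.161). The part of these markers in the fall of *Me1*, or in the values of the other members, was not tested. In RNA from whole cultures, fewer cells of a type and less RNA per cell cannot be told apart.

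*Txnrd1* (NCBI gene 58819) uses NADPH to reduce thioredoxin. It was at 52.8, 49.0 and 49.2 FPKM in the control libraries and at 50.8, 54.8 and 52.9 with menthol. With Wnt3a it was at 47.9, 46.6 and 48.2 FPKM, and with menthol and Wnt3a at 53.4, 53.7 and 52.9. The groups overlapped without Wnt3a, where the first control library was among the high ones, and stood apart in the presence of Wnt3a. The averaged difference was 0.12 on the log2 scale (SE 0.026, 95% CI 0.062 to 0.17, limma adjusted p = 0.0449), with 5 of the 6 menthol libraries above all 6 without menthol. Without Wnt3a the difference was 0.070 (adjusted p = 0.589) and with Wnt3a 0.16 (adjusted p = 0.0836). The call was lost with any 1 library left out except control replicate 1 or menthol replicate 1 (adjusted p up to 0.124). It was also lost with libraries centred on their medians (adjusted p = 0.0608), with the replicate number as a block (adjusted p = 0.0614) and with no FPKM minimum (adjusted p = 0.0811). The difference stayed between 0.10 and 0.13 in all of these fits.

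The other gene of the thioredoxin arm is *Srxn1* (NCBI gene 296271), sulfiredoxin, which rescues overoxidised peroxiredoxins and is a sensitive marker of NRF2 activity. Its libraries ran from 11.9 to 13.2 FPKM in control cells, from 11.8 to 13.2 with menthol, from 12.3 to 13.2 with Wnt3a and from 12.8 to 14.6 with both. All 4 groups overlapped. The averaged difference with menthol was 3.63% (95% CI −2.84% to 10.5%, limma adjusted p = 0.610).

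Glutathione is built from cysteine, which enters the cell as cystine through xCT, the transporter encoded by *Slc7a11* (NCBI gene 310392). *Slc7a11* was at 1.07, 1.02 and 0.923 FPKM in the control libraries, 0.977, 1.29 and 1.32 with menthol, 1.03, 1.17 and 0.924 with Wnt3a, and 1.29, 1.42 and 1.48 with both, from 415 to 663 reads per library. The first menthol library lay inside the control range, and with Wnt3a present all 3 menthol libraries were above the Wnt3a libraries. The averaged difference was 0.31 on the log2 scale, or 23.7% (SE 0.096, 95% CI 7.16% to 42.8%), and did not pass (limma adjusted p = 0.153). With limma voom on read counts recovered from the FPKM values it did, at 0.33 (adjusted p = 0.0142).

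*Gclc* (NCBI gene 25283), the catalytic subunit of glutamate-cysteine ligase, was at 17.6, 17.0 and 17.3 FPKM in control cells, 18.1, 18.4 and 19.2 with menthol, 17.7, 18.4 and 17.1 with Wnt3a, and 18.3, 19.0 and 20.3 with both. The control and menthol libraries did not overlap, and those with Wnt3a did by 1 library. The averaged difference was 7.74% (95% CI 2.68% to 13.1%, limma adjusted p = 0.133). *Gclm* (NCBI gene 29739), the regulatory subunit of the same enzyme, ranged from 8.76 to 11.1 FPKM in control cells, from 8.91 to 11.1 with menthol, from 10.7 to 11.4 with Wnt3a and from 10.3 to 11.1 with both. Its averaged difference was −0.417% (95% CI −9.36% to 9.41%, adjusted p = 0.979). The low end of both ranges without Wnt3a was set by a single library each, control replicate 3 and menthol replicate 1.

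*Gsr* (NCBI gene 116686), glutathione reductase, returns oxidised glutathione to its reduced form with NADPH. It was at 16.3 to 16.9 FPKM in control cells, 14.1 to 17.7 with menthol, 16.0 to 16.8 with Wnt3a and 17.1 to 18.6 with both. The lowest library had menthol alone, while all 3 libraries with menthol and Wnt3a were above the Wnt3a and the control libraries. The averaged difference was 2.54% (95% CI −4.12% to 9.67%, limma adjusted p = 0.752).

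The enzymes that deal with quinones and haem are the classic readouts of NRF2. *Hmox1* (NCBI gene 24451) breaks haem down to biliverdin, iron and carbon monoxide. It was at 44.0, 47.4 and 44.5 FPKM in control cells, 45.2, 45.4 and 42.8 with menthol, 47.0, 45.9 and 42.6 with Wnt3a, and 44.9, 46.9 and 44.7 with both, from 3393 to 3805 reads. All groups overlapped, and the highest library was 11.3% above the lowest, the narrowest range among the members. The averaged difference was −0.574% (95% CI −4.99% to 4.05%, limma adjusted p = 0.928).

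*Nqo1* (NCBI gene 24314), a quinone reductase that uses NADPH or NADH, was at 64.8, 64.2 and 58.7 FPKM in control cells and 60.3, 62.1 and 59.9 with menthol. It was at 60.2, 57.9 and 56.8 FPKM with Wnt3a and at 67.9, 62.4 and 62.9 with menthol and Wnt3a. The groups overlapped without Wnt3a, and with it the menthol libraries were all higher. The difference with menthol was −0.041 on the log2 scale without Wnt3a (limma adjusted p = 0.820) and 0.14 with it (adjusted p = 0.178), and the average was 3.55% (95% CI −1.04% to 8.36%, adjusted p = 0.452). *Osgin1* (NCBI gene 171493), oxidative stress-induced growth inhibitor 1, had only 77 to 170 reads per library. It was at 0.640 to 1.02 FPKM in control cells, 0.854 to 1.10 with menthol, 0.864 to 0.997 with Wnt3a and 0.900 to 1.44 with both, and the groups overlapped. Its averaged difference of 22.2% had a wide interval (95% CI 0.316% to 48.8%) and did not pass (limma adjusted p = 0.314).

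**Figure D2:**
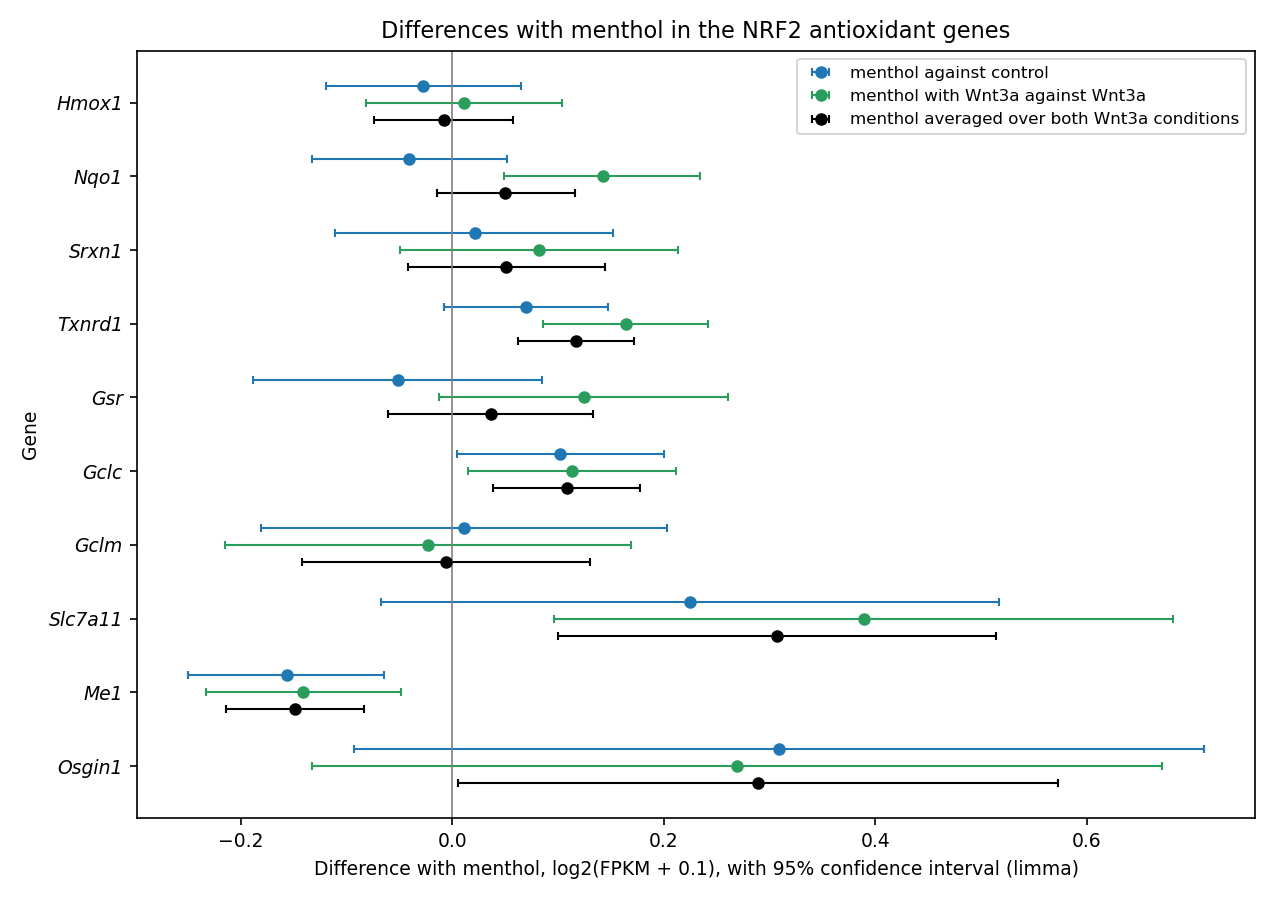
Difference with menthol for each of the 10 genes (horizontal axis, log2(FPKM + 0.1), points) with the limma 95% confidence interval (bars), without Wnt3a (blue), with Wnt3a (green) and averaged (black). The *Me1* intervals lie below 0 in all 3, those of *Hmox1* and *Gclm* are centred close to 0, and *Slc7a11* and *Osgin1*, the genes with the fewest reads, have the widest.

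Taken separately, neither menthol comparison had a member past the adjusted threshold by limma. In menthol against control 0 of 10 passed, where 0.105% of all tested genes did. Limma voom also passed 0, where 60 of all tested genes passed. *Gclc* and *Me1* had an unadjusted p under 0.05, 2 of 10, against 9.34% of all tested genes. The same genes were those whose libraries did not overlap between the groups, against 15.9% of all tested genes. The median difference was 0.016, with 6 members higher and 4 lower.

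In menthol with Wnt3a against Wnt3a alone, 0 of 10 passed by limma, against 0.0524% of all tested genes. Limma voom passed 2 of 10, *Slc7a11* (adjusted p = 0.0426) and *Txnrd1* (adjusted p = 0.0211), where 144 of all tested genes passed. At an unadjusted p under 0.05 the count was 5 of 10, with *Txnrd1*, *Nqo1*, *Slc7a11* and *Gclc* higher and *Me1* lower, against 14.5% of all tested genes. The groups did not overlap for 5 members, against 17.7% of all tested genes. These were *Txnrd1*, *Nqo1*, *Slc7a11* and *Gsr*, which were higher, and *Me1*, which was lower. The median difference was 0.12 here, with 8 members higher and 2 lower. *Me1* was the 1 member that stood apart in the same direction in both menthol comparisons, as did 3.16% of all tested genes.

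Whether menthol acted differently in the presence of Wnt3a was tested as an interaction. No member passed (0 of 10, and 0% of all tested genes, by limma and by limma voom). At an unadjusted p under 0.05, *Nqo1* was counted alone, 1 of 10 against 6.99% of all tested genes, with an interaction of 0.18 on the log2 scale (95% CI 0.051 to 0.31, limma adjusted p = 0.715). The difference between the *Nqo1* values with and without Wnt3a is therefore not shown.

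Wnt3a against control moved none of the members past the adjusted threshold. By limma voom 0 of 10 passed, where 303 of all tested genes did. By limma 0 of 10 passed, against 0.437% of all tested genes. At an unadjusted p under 0.05, 2 of 10 were counted, both lower, against 15.1% of all tested genes. These were *Nqo1*, at −6.73% (95% CI −12.5% to −0.554%, limma adjusted p = 0.288), and *Txnrd1*, at −5.39% (95% CI −10.4% to −0.152%, adjusted p = 0.317). The libraries did not overlap for *Txnrd1*, which was lower, and for *Me1*, which was higher by 5.75% (adjusted p = 0.405), 2 of 10 against 20.2% of all tested genes. Without control replicate 1 the *Me1* difference went from 0.081 to 0.036 on the log2 scale and that of *Txnrd1* from −0.080 to −0.045. *Hmox1* differed by −0.407% (95% CI −6.60% to 6.20%, adjusted p = 0.967).

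Adding Wnt3a to menthol gave differences above 0 in all 10 members, from 0.014 (*Txnrd1*) to 0.21 (*Slc7a11*) on the log2 scale. Their median was 0.091, against 0.004 over all tested genes. The members share the same libraries, so their signs are not independent. None passed by limma voom (0 of 10, where 33 of all tested genes did) or by limma (0 of 10, against 0.0961%). At an unadjusted p under 0.05, *Gsr* (11.2%, limma adjusted p = 0.656) and *Me1* (6.96%, adjusted p = 0.710) were counted, 2 of 10 against 6.72%. The groups stood apart for *Nqo1* and *Me1*, 2 of 10 against 11.3%.

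Menthol and Wnt3a together against control passed 0 of 10 by limma, against 0.83% of all tested genes. Limma voom passed 1 of 10, *Slc7a11*, where 262 of all tested genes passed. Before adjustment, 4 of 10 had a p under 0.05, all higher, against 13.5% of all tested genes. They were *Gclc* at 10.8% (limma adjusted p = 0.162), *Slc7a11* at 35.5% (adjusted p = 0.166), *Osgin1* at 39.7% (adjusted p = 0.265) and *Txnrd1* at 5.98% (adjusted p = 0.330). The groups did not overlap for 4 members (*Gclc*, *Slc7a11*, *Txnrd1* and *Gsr*), against 20.5% of all tested genes. The comparisons share their control or menthol libraries and are not independent of each other.

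The regulators of NRF2 were close to level. *Nfe2l2* averaged 34.3 ± 0.256 FPKM (SD, n = 3) in control cells, 36.1 ± 0.555 with menthol, 35.3 ± 1.21 with Wnt3a and 34.7 ± 1.13 with both. Its libraries stood apart between menthol and control, but the averaged difference with menthol was 1.62% (95% CI −2.02% to 5.40%, limma adjusted p = 0.700). *Keap1* averaged 18.3 ± 0.370, 18.7 ± 1.09, 18.8 ± 0.479 and 18.8 ± 0.177 FPKM in the same order, and differed by 1.09% (95% CI −3.40% to 5.79%, adjusted p = 0.852). Of 14 listed regulators 12 were tested, of which 9 were higher, 3 lower and none passed in any comparison, with a median of 0.026 for menthol averaged. For menthol averaged, the nearest to passing were *Sqstm1*, the autophagy receptor that can displace NRF2 from KEAP1, at 5.26% (adjusted p = 0.297), and *Nfe2l1*, a relative of NRF2, at 3.10% (adjusted p = 0.362).

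Other known NRF2 targets split evenly in the average. Of 41 listed, among them glutathione transferases, ferritins and enzymes of the pentose phosphate pathway, 34 were tested and none passed in any comparison. With menthol averaged 17 were higher and 17 lower, and the median was −0.004. Without Wnt3a 20 were higher and 14 lower (median 0.029), and with Wnt3a 13 were higher and 21 lower (median −0.021). Nearest to passing for menthol averaged were *Glrx*, glutaredoxin, at −8.92% (limma adjusted p = 0.0649), and *Tkt*, transketolase, at 4.39% (adjusted p = 0.139). Of 24 general antioxidant enzymes 23 were tested, with 9 higher, 14 lower and a median of −0.040 for menthol averaged. Without Wnt3a 13 were higher and 10 lower (median 0.009), and with Wnt3a 3 were higher and 20 lower (median −0.067). None passed for menthol averaged, with *Nnt*, the mitochondrial transhydrogenase that makes NADPH, at −5.93% (adjusted p = 0.0541) and *Msra*, a methionine sulfoxide reductase, at −18.6% (adjusted p = 0.0616). *Cat*, catalase, fell by 13.3% with menthol and Wnt3a together against control (limma adjusted p = 0.0169), the only call in that list over the 7 comparisons.

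Genes of other stress programs did pass the test with menthol, and the difference between lists was not tested. ATF4 is the factor of the amino acid and integrated stress response, and it also drives *Slc7a11*. Of 18 listed ATF4 targets 16 were tested, with 15 higher, 1 lower and a median of 0.099 for menthol averaged, and 4 passed, all of them higher, where 1.15% of all tested genes passed. These 4 serve serine and one-carbon metabolism or amino acid import. *Psat1*, a serine synthesis enzyme, rose by 18.7% (limma adjusted p = 0.0114). Its libraries were at 51.6 to 55.4 FPKM in control cells against 56.0 to 67.4 with menthol, and at 51.1 to 54.0 with Wnt3a against 59.9 to 66.2 with both. *Slc7a5*, the large neutral amino acid transporter, rose by 13.0% (adjusted p = 0.0133), *Mthfd2*, of mitochondrial folate metabolism, by 12.7% (adjusted p = 0.0251), and *Shmt2*, the mitochondrial serine hydroxymethyltransferase, by 8.40% (adjusted p = 0.0498). *Mthfd2* lost its call when any 1 of 6 libraries was left out (control 2 and 3, menthol 3, Wnt3a 1 and 2, menthol with Wnt3a 2), *Shmt2* with any library left out except menthol replicate 1, and *Psat1* and *Slc7a5* with none. With no FPKM minimum, *Psat1* (adjusted p = 0.0534), *Mthfd2* (0.0573) and *Shmt2* (0.0975) lost theirs. *Shmt2* also lost its call with centred libraries (0.0608) and with the replicate number as a block.

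The metallothioneins, which bind zinc and copper and also scavenge oxidants, had the largest differences of the genes named here. *Mt1* went from 123 ± 32.7 FPKM in control cells to 365 ± 81.1 with menthol, and from 102 ± 17.1 with Wnt3a to 215 ± 62.6 with both (SD, n = 3), an averaged log2 difference of 1.32 (SE 0.15, limma adjusted p = 0.00104). *Mt2A* rose by 0.73 on the same scale (SE 0.12, adjusted p = 0.00942), a call lost with no FPKM minimum (adjusted p = 0.0609). The metallothionein genes are similar in sequence and reads may be divided between them. Of 5 listed metal-responsive genes 3 were tested and these 2 passed. Of 8 heat shock factor targets 6 were tested, 4 higher and 2 lower, and none passed, with *Hsp90aa1* at 4.52% (adjusted p = 0.0972) and *Hspb1* at −5.48% (adjusted p = 0.158).

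**Figure D3:**
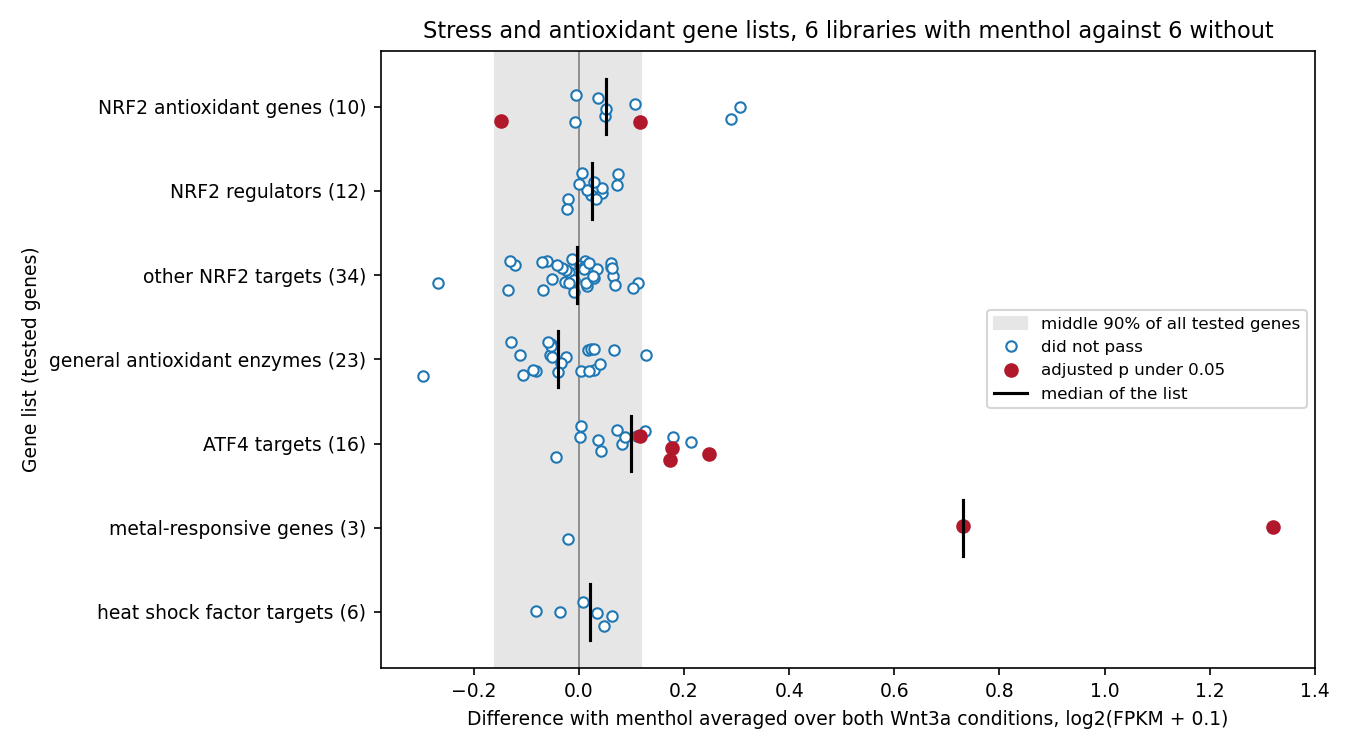
Averaged difference with menthol (horizontal axis, log2(FPKM + 0.1)) of every tested gene in 7 lists (rows), with genes past an adjusted p of 0.05 filled, the median of each list as a black line and the middle 90% of all tested genes in grey. The NRF2 genes include 1 filled point on either side of 0, the regulators lie close to 0, and the 2 metallothioneins stand farthest to the right.

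The members did not move as 1 block across libraries. Over the 12 libraries Pearson's r between the log2 values of 2 members was above 0 in 32 of 45 pairs, with a median of 0.157 and a range from −0.742 (*Txnrd1* and *Me1*) to 0.899 (*Gclc* and *Slc7a11*). The libraries share their groups, so a treatment that moves 2 genes gives a correlation. After each group's mean was subtracted, 23 of 45 pairs were above 0 with a median of 0.020, and *Gclc* and *Slc7a11* had 0.754. With the average of the members' standardised values, r was highest for *Slc7a11* (0.880) and *Srxn1* (0.703) and lowest for *Me1* (−0.112), and each member is part of that average, which raises its r. Outside the list, the genes most like that average were *Aamp* (r = 0.907), *Plekhb2* (r = 0.891), LOC685933 (r = 0.887), *Ehd4* (r = 0.875) and *Pfkl* (r = 0.875), over 12 libraries. The spread between replicates of a group, as an SD on the log2 scale, was from 0.043 for *Txnrd1* to 0.24 for *Osgin1*, with a median over all tested genes of 0.075.

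The reads on genes numbered 36914010 to 38836269 per library, and replicates differed by more than counting error in every group. Of 8 neuron markers 6 were under 1 FPKM in every library, among them *Tubb3*, *Stmn2* and *Prph*, while *Uchl1* was at 94.2 to 111 FPKM, and 7 of 8 sensory neuron markers were under 1 FPKM, *Trpm8* with 61 to 97 reads among them. *Isl1* was the exception and rose with Wnt3a (0.50 on the log2 scale, limma adjusted p = 0.0121; 0.59 in the presence of menthol, adjusted p = 0.00531; and 0.46 with both against control, adjusted p = 0.00684). Summed skeletal muscle, Schwann cell and macrophage markers reached 9.69, 2.13 and 2.75 FPKM at most.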

How the data were processed

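The deposited table holds 1 FPKM value per gene and library, which the authors computed from reads counted per gene. The submitters' processing notes name fastp, HISAT, HTSeq, R 3.2.0, DESeq2 and the mRatBN7.2 rat build, and how reads from mouse transcripts were placed is not given in the sources used here. FPKM depends on gene length and on the library's total, so a rise of abundant genes lowers the others. The authors tested counts with DESeq2 at a q-value under 0.05 and a 2-fold threshold. Groups and replicate numbers came from the sample titles.

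The values here were tested with limma 3.58.1 in R 4.3.3 on log2(FPKM + 0.1), for 11451 genes with a mean of at least 0.5 FPKM, with a variance trend and no replicate block. Percent differences are on the FPKM + 0.1 scale, which slightly understates those of genes near 1 FPKM. Whole reads were recovered for 100% of genes (tolerance 1e-05 of a read), and limma voom on them was an alternative, beside pseudocounts of 0.01 and 1, a minimum of 1 FPKM or none, libraries centred on their medians, the replicate number as a block, fits of only the groups compared, and leaving out each library. Replicates gave a chi-square per degree of freedom of 3.53 to 7.61, so none was a copy of another. Intervals of reads cover counting error only.

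The genes named are all 10 members, *Nfe2l2* and *Keap1*, each listed gene with an adjusted p under 0.05 in any comparison, the 2 genes with the largest absolute limma statistic in each of the 6 pathway lists, and the 5 genes most like the members' average. The members, lists and motif were chosen with earlier results of these data known. Promoter sequences came from RefSeq, GRCr8.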

Additional observations from a re-analysis of the deposited data

How the results depend on the processing

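Over 758 comparisons of a value with its alternative, 682 kept the direction and the side of the threshold, 46 lost a call, 3 gained one and 27 turned sign, all of the last in differences that had not passed. With menthol averaged over both Wnt3a conditions, the members that passed numbered 0 with no FPKM minimum, 1 (*Me1*) with centred libraries, 1 (*Me1*) with the replicate block, 3 (with *Slc7a11*) by limma voom and 0 to 2 with 1 library left out. By limma voom 2 members passed in menthol with Wnt3a against Wnt3a, where 144 of all tested genes did. In both against control 1 member passed by limma voom, where 262 of all tested genes did. The number of ATF4 targets past the threshold was 1 with no minimum, 7 by limma voom and 2 to 5 with 1 library left out. The counts over all genes, from which the background shares come, moved as well. For menthol averaged, 132 genes passed, against 302 by limma voom, 85 with no minimum and 52 (without menthol 3) to 143 (without Wnt3a 3) with 1 library left out. Leaving out 1 library moved the 12 of menthol against control to between 0 (without control 3) and 10, the 6 of menthol with Wnt3a against Wnt3a to between 0 (without Wnt3a 1 or 2) and 38 (without Wnt3a 3), the 50 of Wnt3a against control to between 6 (without control 3) and 291 (without Wnt3a 3), the 11 of both against menthol to between 3 and 7, and the 95 of both against control to between 41 and 100. A pseudocount of 1 lowered the averaged difference of *Slc7a11* from 0.31 to 0.18 and of *Osgin1* from 0.29 to 0.16. *Osgin1* has no value at a minimum of 1 FPKM.

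Signs turned with 1 library left out, and the cause was not tested. *Hmox1* then ran from −0.048 to 0.005 in menthol against control, from −0.030 to 0.040 in menthol with Wnt3a against Wnt3a, from −0.029 to 0.008 in the average and from −0.035 to 0.036 in Wnt3a against control, and with centred libraries it was −0.001 in menthol with Wnt3a against Wnt3a. *Gclm* ran from −0.092 to 0.11, from −0.044 to 0.013 and from −0.058 to 0.042 in the first 3 of these. In menthol against control *Srxn1* ran from −0.019 to 0.071 and *Gsr* from −0.12 to 0.037. *Slc7a11* ran from −0.031 to 0.13 in Wnt3a against control, and *Keap1* from −0.005 to 0.037 in the average.

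Samples with the same replicate number shared little of their deviation. Their r ran from −0.0551 to 0.153 over 18 pairs, 1 of them over 0.1, against −0.157 to 0.115 for other pairs. Of 12 libraries, 6 correlated best with their own number, so a weak pairing may remain. With the replicate block, *Me1* had an adjusted p of 0.0195, *Txnrd1* of 0.0614 and *Shmt2* of 0.0614. Over the alternatives, the adjusted p ran from 0.00746 to 0.0961 for *Me1*, passing in 9 of 19, from 0.00983 to 0.124 for *Txnrd1*, passing in 6 of 19, and from 0.000731 to 0.047 for *Slc7a5*, passing in 19 of 19. *Osgin1* and *Slc7a11* rest on the fewest reads, and their intervals limit what can be said of them.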
